A study of Homo sapiens with 6 samples.

Results

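Transcripts of 10 antiviral restriction factors, namely BST2, RSAD2, CMPK2, ISG20, SAMHD1, ZC3HAV1, SLFN5, APOBEC3C, APOBEC3F and APOBEC3G, were followed through 6 libraries of poly(A) RNA from T98G cells, an established human glioblastoma line. The 10 symbols each matched 1 of the 60483 gene ids in the count tables, and all 10 passed the filter on low counts. The groups, all of T98G cells, were oeSRPK1 (2 libraries), which received a pcDNA3.1 construct expressing SRPK1 by transient transfection with Lipofectamine, shSRPK1 (2 libraries), which received a pLKO.1 short hairpin construct against SRPK1 in the same way, and NT (2 libraries), left untreated. SRPK1 phosphorylates splicing factors rich in serine and arginine, and the groups set cells meant to have more or less of it against untreated cells. No library of cells transfected with an empty or unrelated vector was used here, so in each comparison with NT the transfection and the construct cannot be told apart, and the oeSRPK1 and shSRPK1 groups also differed in vector backbone.

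Restriction factors are host proteins that block a step of viral replication inside the cell or at its surface. They act at virus release (BST2), on viral RNA (ZC3HAV1, ISG20), on transcription from viral genomes (SLFN5), on the pool of nucleotides that polymerases use (SAMHD1, RSAD2, CMPK2) or by deaminating cytidines in viral DNA (the APOBEC3 enzymes). Many are interferon-stimulated genes, which carry in their promoters an interferon-stimulated response element bound by STAT and IRF proteins, and several are also made without interferon. Only transcripts were measured here, not proteins or viral replication.

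Promoter windows from RefSeq (GRCh38.p14) ran from 250 bases before to 50 bases after an annotated start. They were found for 6 of the 10 genes, 9 windows in all. Sequences cover 5 of these windows, 1 each of BST2, ISG20 and SAMHD1 and both of RSAD2. The windows of CMPK2 and ZC3HAV1, which also rose in both transfected groups, were searched, but their sequences were left out. A link between the windows and the rises was not tested. SLFN5, APOBEC3C, APOBEC3F and APOBEC3G were the members without a window. A core of the interferon-stimulated response element (GAAA, then any 2 bases, then GAAA, searched on both strands) was found in 3 windows, 1 each of BST2, ISG20 and RSAD2, while 3.57% of all 35116 windows in the table hold it. A shorter core bound by IRF proteins (AANNGAAA, both strands, contained in every match of the longer core) was found in 6 of the 9 windows and in 22.8% of all windows. A GAS element (TTCNNNGAA, a palindrome) was found in 2 of the 9 windows, those of BST2 and ZC3HAV1, and in 7.66% of all windows. The first 3 sequences below have the longer core in capitals, and the upstream RSAD2 sequence has the shorter core in capitals. The upstream window of RSAD2 shares 165 bases with 1 of the 3 windows of CMPK2 and 77 with another, and CMPK2 is transcribed in the opposite direction. Both shorter cores of the CMPK2 window that shares 165 bases lie in the shared stretch. They were therefore counted in the RSAD2 window as well, and the 6 windows with the shorter core are not all separate. The window of SAMHD1 holds none of these letters and so has no capitals.
BST2, chr19:17405581-17405880, minus strand: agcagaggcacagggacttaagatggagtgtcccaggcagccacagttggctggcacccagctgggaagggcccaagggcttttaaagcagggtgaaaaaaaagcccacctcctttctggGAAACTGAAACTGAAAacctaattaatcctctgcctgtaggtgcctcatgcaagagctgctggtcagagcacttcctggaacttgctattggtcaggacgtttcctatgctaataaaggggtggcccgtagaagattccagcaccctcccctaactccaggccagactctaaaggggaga
ISG20, chr15:88638766-88639065, plus strand: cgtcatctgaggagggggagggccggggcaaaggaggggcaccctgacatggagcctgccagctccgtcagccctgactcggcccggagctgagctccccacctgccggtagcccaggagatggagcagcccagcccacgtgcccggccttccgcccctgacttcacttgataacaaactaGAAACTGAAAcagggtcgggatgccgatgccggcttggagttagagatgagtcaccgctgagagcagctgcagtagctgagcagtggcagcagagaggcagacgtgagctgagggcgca
RSAD2, downstream start, chr2:6877527-6877826, plus strand: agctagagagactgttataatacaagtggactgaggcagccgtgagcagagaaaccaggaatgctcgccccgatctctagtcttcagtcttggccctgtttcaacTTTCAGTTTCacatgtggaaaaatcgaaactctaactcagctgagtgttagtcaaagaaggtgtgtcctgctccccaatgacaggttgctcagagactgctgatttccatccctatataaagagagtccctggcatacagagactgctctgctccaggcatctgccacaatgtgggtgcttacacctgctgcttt
RSAD2, upstream start, chr2:6865635-6865934, plus strand: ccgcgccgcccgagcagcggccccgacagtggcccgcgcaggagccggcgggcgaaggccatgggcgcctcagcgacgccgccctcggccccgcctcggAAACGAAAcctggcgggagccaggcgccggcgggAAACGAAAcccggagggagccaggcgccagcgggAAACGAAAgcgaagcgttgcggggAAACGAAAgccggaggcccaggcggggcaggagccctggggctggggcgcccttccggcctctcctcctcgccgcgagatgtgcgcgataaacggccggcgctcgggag
SAMHD1, chr20:36951659-36951958, minus strand: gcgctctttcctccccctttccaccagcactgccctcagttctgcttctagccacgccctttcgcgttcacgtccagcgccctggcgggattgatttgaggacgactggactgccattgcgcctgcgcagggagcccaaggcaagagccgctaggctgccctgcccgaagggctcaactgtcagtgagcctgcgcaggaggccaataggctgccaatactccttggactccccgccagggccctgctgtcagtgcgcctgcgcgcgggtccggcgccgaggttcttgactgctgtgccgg
In the BST2 window a pair of overlapping matches began 130 and 124 bases before the start, in ISG20 1 match began 69 bases before it, and in the downstream RSAD2 window 1 match began 145 bases before it. The upstream RSAD2 window held the shorter core at 4 places. A match describes the letters only, and binding was not measured.

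Reads counted in genes ranged from 3891549 in oeSRPK1 2 to 22691215 in oeSRPK1 1, with 9891606 to 13650909 in the other 4 libraries. A floor of 3 counts stood for 0.132 to 0.771 CPM (counts scaled by the reads counted in genes), which covers counting error only. SRPK1 itself had 190.3 and 168.0 normalised CPM in oeSRPK1, 113.1 and 140.1 in shSRPK1, and 152.5 and 140.4 in NT, and it passed the test only in oeSRPK1 against shSRPK1 (log2 fold change 0.50 ± 0.14 SE, edgeR adjusted p = 0.0377, against 0.175 and 0.360 for oeSRPK1 and shSRPK1 against NT). Because it did not pass against NT in either transfected group, the groups are named by their labels throughout. The replicates of shSRPK1 differed most, with a chi-square per gene of 43.9 against 7.80 for oeSRPK1 and 4.33 for NT. Of 7 markers of glioblastoma lines, VIM and CD44 were abundant, SOX2 and S100B had 0 reads in every library and GFAP had 1 read in all. NES had 0.765 to 1.89 CPM. OLIG2 had 3.28 and 2.07 CPM in oeSRPK1, 1.06 and 1.05 in shSRPK1, and 1.17 and 0.777 in NT. It was called higher in oeSRPK1 than in NT (1.59 ± 0.39, edgeR adjusted p = 0.0262) and than in shSRPK1 (1.44 ± 0.39, edgeR adjusted p = 0.0331). Several of the restriction factors are abundant in leukocytes, and of 12 leukocyte markers 5 had 0 reads in every library, PTPRC and CD3E among them. Their summed level was 7.15 and 9.05 CPM in oeSRPK1, 2.79 and 4.78 in shSRPK1, and 3.40 and 3.60 in NT, with ITGAM the most abundant of them in every library. The 8 skeletal muscle markers, none of them at 0 reads in every library, summed to 53.1 and 665 CPM in oeSRPK1, 0.604 and 3.63 in shSRPK1, and 0.485 and 0.777 in NT, and the part of that RNA in the results below was not tested. In RNA from whole cultures, a higher level in every cell and a larger share of cells with the transcript cannot be told apart.

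Of the 10 restriction factors, 8 rose and 0 fell in oeSRPK1 against NT, where 20.6% of the 14732 tested genes were called, 11.2% higher and 9.45% lower. In shSRPK1 against NT, 6 rose and 0 fell, where 9.18% of tested genes were called, 5.43% higher and 3.75% lower. A call is a Benjamini-Hochberg adjusted p under 0.05 in the quasi-likelihood test of edgeR, with all 6 libraries fitted together. The median log2 fold change of the 10 was 1.34 in oeSRPK1 and 0.99 in shSRPK1, beside -0.001 and 0.011 over all tested genes. Both oeSRPK1 libraries lay above both NT libraries for all 10 genes, which held for 35.9% of tested genes, and both shSRPK1 libraries lay above both NT libraries for 8 of 10, which held for 28.8%. These comparisons share the NT libraries, so a low NT value raises both fold changes. Between the transfected groups 2 of the 10 were called higher in oeSRPK1 than in shSRPK1 and 1 lower, where 22.8% of tested genes were called, 11.5% higher and 11.3% lower.

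**Figure D1:**
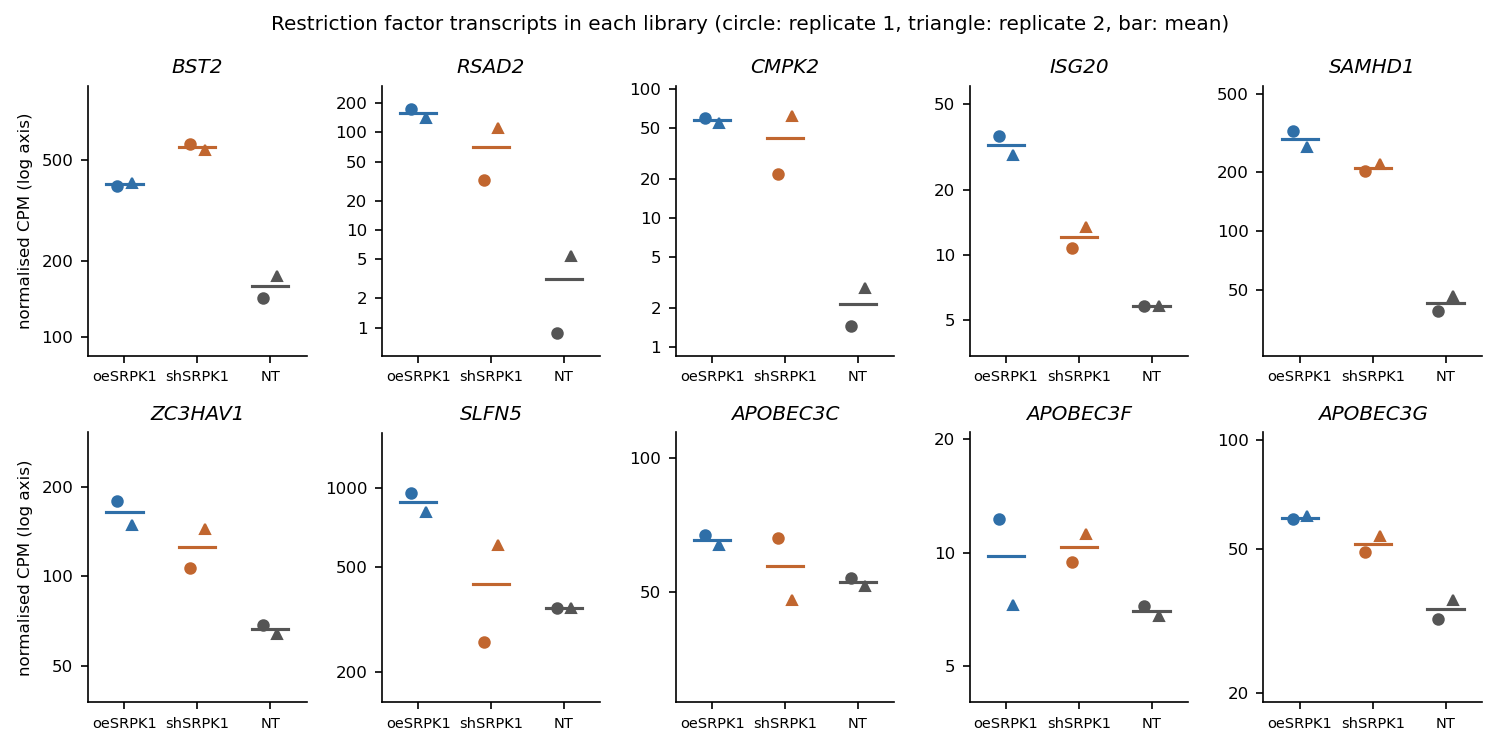
Normalised CPM (log axis, a scale of its own in each panel) of each restriction factor in the 2 oeSRPK1, 2 shSRPK1 and 2 NT libraries, with points for libraries and bars for group means. RSAD2 and CMPK2 differ most from NT, the shSRPK1 libraries stand far apart for RSAD2, CMPK2 and SLFN5, and the APOBEC3C levels of all groups lie between 48.1 and 67.0 CPM.

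Levels of different genes were set side by side per kilobase of merged exons. In NT cells BST2 was the most abundant of the 10, at 142 ± 19.5 CPM per kb (SD, n = 2), followed by SLFN5 at 32.6 ± 0.0264 and APOBEC3C at 18.7 ± 0.527. ZC3HAV1, APOBEC3G, SAMHD1 and APOBEC3F followed at 8.06, 6.24, 3.80 and 2.15 CPM per kb, each with libraries that did not overlap those of the next. ISG20, RSAD2 and CMPK2 were lowest, at 0.789, 0.653 and 0.506 CPM per kb, where the NT libraries of RSAD2 overlapped those of ISG20 and of CMPK2. In oeSRPK1 BST2 stood at 358 CPM per kb and SLFN5 at 82.8. RSAD2 came next in order at 32.7 ± 4.90, and SAMHD1 followed at 26.3 ± 3.59 with libraries overlapping those of APOBEC3C. APOBEC3F was then last at 3.01 ± 1.10. In shSRPK1 APOBEC3C and SAMHD1 followed BST2 and SLFN5 at 20.3 ± 4.53 and 18.7 ± 1.06 with overlapping libraries, and ISG20 was last at 1.64 ± 0.256, while neighbours in the order from ZC3HAV1 through RSAD2 and CMPK2 to APOBEC3G overlapped. BST2 and SLFN5 were first and second in all 3 groups. Merged exons count the exons of every annotated transcript, 7363 bases for ISG20 and 1119 for BST2, so per-length values are lower where unused exons are annotated.

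**Figure D2:**
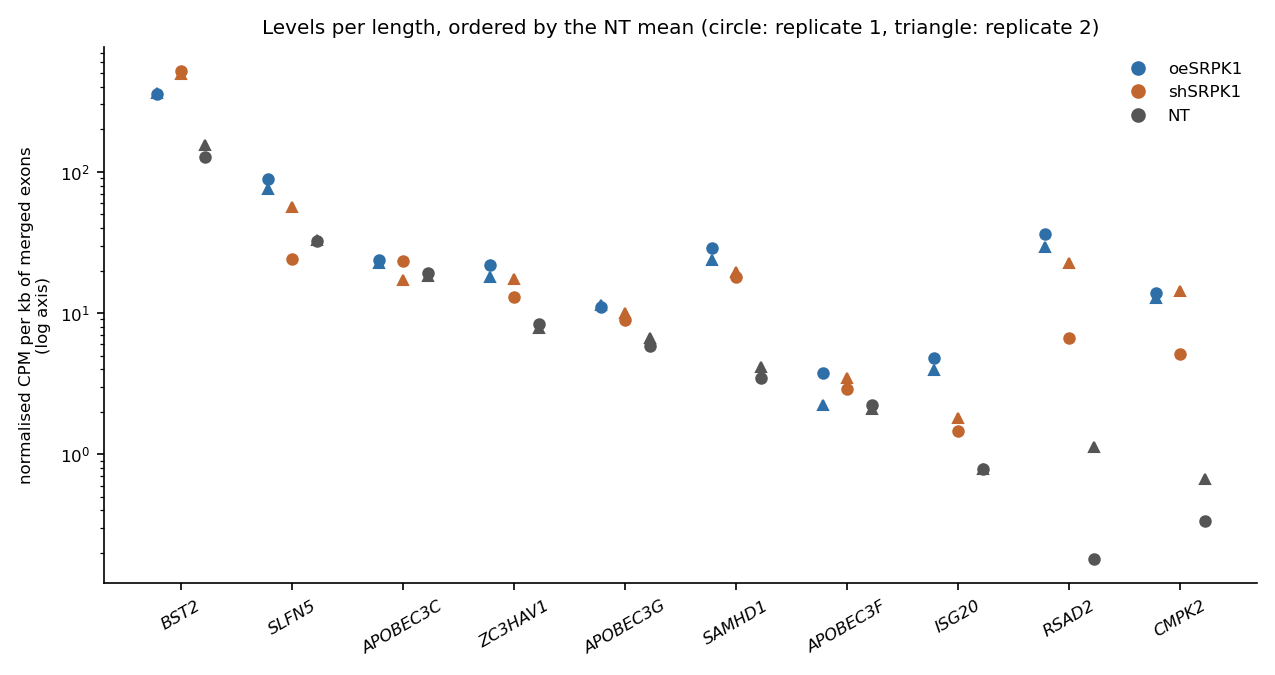
Normalised CPM per kilobase of merged exons (log axis) for the 10 genes, ordered from left to right by their NT mean, with points for the oeSRPK1, shSRPK1 and NT libraries. BST2 is highest in every group, and the genes lowest in NT, RSAD2 and CMPK2, reach 32.7 and 13.3 CPM per kb in oeSRPK1.

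BST2, or tetherin, holds budding virus particles at the cell surface (ENSG00000130303.11, GRCh38 chromosome 19, 17402939 to 17405648, minus strand). It had 395.8 and 406.4 normalised CPM in oeSRPK1, 576.0 and 547.9 in shSRPK1, and 143.3 and 174.1 in NT. No groups overlapped, and shSRPK1 was the highest, whereas oeSRPK1 had the highest mean for the other 7 genes called in oeSRPK1. BST2 rose 2.53-fold in oeSRPK1 against NT (95% limits 2.03 to 3.14, 1.34 ± 0.14 as log2 fold change with SE, here and below, edgeR adjusted p = 0.00116). It rose 3.54-fold in shSRPK1 against NT (95% limits 2.84 to 4.42, 1.82 ± 0.14, edgeR adjusted p = 0.00124). In oeSRPK1 its level was 0.714 times that of shSRPK1 (95% limits 0.575 to 0.885, -0.49 ± 0.13, edgeR adjusted p = 0.0368). The calls against NT were kept with any library left out, but that between the transfected groups was lost without oeSRPK1 1 (edgeR adjusted p = 0.216), oeSRPK1 2 (0.157), NT 1 (0.0755) or NT 2 (0.0740). It was also lost with only the libraries compared (edgeR adjusted p = 0.0770), with the replicate block (0.0583) and with a spread per group in limma-voom (adjusted p = 0.0604).

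ZC3HAV1 and ISG20 act on viral RNA. ZC3HAV1 (ZAP, ENSG00000105939.11, chromosome 7, 139043520 to 139109719, minus strand) binds CpG-rich RNA and directs it to decay, and had 179.2 and 149.2 CPM in oeSRPK1, 106.9 and 144.1 in shSRPK1, and 68.7 and 64.1 in NT. Both transfected groups lay above NT, and shSRPK1 2 lay close to oeSRPK1 2. ZC3HAV1 rose 2.48-fold in oeSRPK1 (95% limits 1.90 to 3.24, 1.31 ± 0.17, edgeR adjusted p = 0.00261) and 1.89-fold in shSRPK1 (95% limits 1.45 to 2.46, 0.92 ± 0.17, edgeR adjusted p = 0.0198). Between the transfected groups the difference was 0.39 ± 0.16 (95% limits 0.01 to 0.77, edgeR adjusted p = 0.120). Its call in oeSRPK1 was lost without oeSRPK1 1 (edgeR adjusted p = 0.0609). Its call in shSRPK1 was lost without NT 1 (0.222), NT 2 (0.170), oeSRPK1 1 (0.0665) or oeSRPK1 2 (0.0659). Without shSRPK1 2 the difference between the transfected groups was 0.59.

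ISG20 is an exonuclease that degrades RNA from the 3′ end (ENSG00000172183.13, chromosome 15, 88636153 to 88656483, plus strand). It had 35.5 and 28.9 CPM in oeSRPK1, 10.7 and 13.4 in shSRPK1, and 5.83 and 5.79 in NT. These came from 790 and 112 reads in oeSRPK1, 142 and 140 in shSRPK1, and 60 and 82 in NT. The 3 groups did not overlap, and the NT libraries were nearly equal. It rose 5.62-fold in oeSRPK1 (95% limits 4.15 to 7.61, 2.49 ± 0.19, edgeR adjusted p = 0.000426) and 2.07-fold in shSRPK1 (95% limits 1.52 to 2.81, 1.05 ± 0.19, edgeR adjusted p = 0.0203). Its level in oeSRPK1 was 2.72 times that in shSRPK1 (95% limits 2.05 to 3.61, 1.44 ± 0.18, edgeR adjusted p = 0.00302). The last was the difference between transfected groups that kept its call most often, being lost only without oeSRPK1 1 (edgeR adjusted p = 0.0743) among the 6 libraries left out in turn. The call in shSRPK1 was lost without NT 1 (0.230), NT 2 (0.163), oeSRPK1 1 (0.0660) or oeSRPK1 2 (0.0625).

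SLFN5, a nuclear schlafen protein that silences viral transcription, differed between the shSRPK1 libraries (ENSG00000166750.8, chromosome 17, 35243036 to 35273655, plus strand). It had 959.0 and 814.3 CPM in oeSRPK1, 260.2 and 605.6 in shSRPK1, and 349.2 and 349.6 in NT. The oeSRPK1 libraries were the highest, while shSRPK1 1 lay below NT and shSRPK1 2 above it. SLFN5 rose 2.54-fold in oeSRPK1 (95% limits 1.37 to 4.71, 1.34 ± 0.37, edgeR adjusted p = 0.0487). In shSRPK1 it was 1.24 times the NT level (95% limits 0.674 to 2.28, 0.31 ± 0.36, edgeR adjusted p = 0.621), and the difference of oeSRPK1 from shSRPK1 was 1.04 ± 0.37 (edgeR adjusted p = 0.0900). Without shSRPK1 2 the value of SLFN5 in shSRPK1 against NT was -0.42, and without shSRPK1 1 it was 0.79. The difference of oeSRPK1 from shSRPK1 was 1.73 without shSRPK1 2 and 0.52 without shSRPK1 1. Either fit leaves 1 shSRPK1 library, which takes its spread from the other groups, so only the values are given. The call in oeSRPK1 against NT was lost without NT 1 (edgeR adjusted p = 0.234), NT 2 (0.218), oeSRPK1 1 (0.214) or oeSRPK1 2 (0.103), with DESeq2 size factors (0.0503) and with upper-quartile scaling (0.0508).

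The factors that act on the nucleotide pool showed the largest differences from NT. RSAD2, or viperin, converts CTP into a chain-terminating analogue (ENSG00000134321.10, chromosome 2, 6865806 to 6898239, plus strand), and CMPK2, a mitochondrial kinase of CMP and UMP, is its neighbour on the opposite strand (ENSG00000134326.10, chromosome 2, 6840570 to 6866635). Their annotated exons share 14 bases. RSAD2 had 174.6 and 141.1 CPM in oeSRPK1, 32.2 and 110.2 in shSRPK1, and 0.874 and 5.44 in NT, where it rested on 9 and 77 reads. The NT libraries differed 6.22-fold and the shSRPK1 libraries 3.42-fold, replicate 2 being higher in both groups, yet the transfected libraries were all above NT and the oeSRPK1 libraries above those of shSRPK1. It rose 46.9-fold in oeSRPK1 (95% limits 7.91 to 277, 5.55 ± 0.97, edgeR adjusted p = 0.0239). In shSRPK1 it was 21.0 times the NT level (95% limits 3.68 to 119, 4.39 ± 0.95), which did not pass in edgeR (adjusted p = 0.0616) but passed in DESeq2 (adjusted p = 0.00163), with a replicate block (edgeR adjusted p = 0.0306) and with a filter at 5 CPM in 2 libraries (edgeR adjusted p = 0.0348). The difference of oeSRPK1 from shSRPK1 was 1.16 ± 0.75 (95% limits -0.82 to 3.14, edgeR adjusted p = 0.324). The call in oeSRPK1 was lost without NT 1 (4.85, edgeR adjusted p = 0.106), NT 2 (7.48, 0.0658) or oeSRPK1 1 (5.36, 0.0545), and the NT library kept decides the size.

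CMPK2 followed the same libraries. It had 59.9 and 54.5 CPM in oeSRPK1, 21.98 and 61.9 in shSRPK1, and 1.46 and 2.90 in NT, where it rested on 15 and 41 reads. All transfected libraries lay above NT, and shSRPK1 2 lay above both oeSRPK1 libraries. CMPK2 rose 25.4-fold in oeSRPK1 (95% limits 8.18 to 78.8, 4.67 ± 0.65, edgeR adjusted p = 0.00959) and 18.4-fold in shSRPK1 (95% limits 5.97 to 56.8, 4.20 ± 0.64, edgeR adjusted p = 0.0249). The transfected groups differed by 0.46 ± 0.49 (95% limits -0.78 to 1.71, edgeR adjusted p = 0.535). That difference was 1.35 without shSRPK1 2 and turned direction without shSRPK1 1 (-0.13). Both calls against NT were lost without NT 1 (4.30 in oeSRPK1 and 3.84 in shSRPK1) or NT 2 (5.28 and 4.83). Without shSRPK1 2 the fold in shSRPK1 was 3.27 on the log2 scale.

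SAMHD1 cleaves deoxynucleotide triphosphates and so limits reverse transcription (ENSG00000101347.8, chromosome 20, 36889773 to 36951901, minus strand). It had 324.7 and 267.5 CPM in oeSRPK1, 202.2 and 219.1 in shSRPK1, and 39.0 and 46.5 in NT. The 3 groups did not overlap, and the replicates of each were close. SAMHD1 rose 6.92-fold in oeSRPK1 (95% limits 5.40 to 8.87, 2.79 ± 0.15, edgeR adjusted p = 0.000294) and 4.92-fold in shSRPK1 (95% limits 3.85 to 6.27, 2.30 ± 0.15, edgeR adjusted p = 0.00124). Both calls were kept with any of the 6 libraries left out, as for BST2. Its level in oeSRPK1 was 1.41 times that in shSRPK1 (95% limits 1.12 to 1.77, 0.49 ± 0.14, edgeR adjusted p = 0.0432). The call between transfected groups was lost without oeSRPK1 1 (0.31, edgeR adjusted p = 0.355), oeSRPK1 2 (0.63, 0.0794), NT 1 (0.49, 0.0928) or NT 2 (0.49, 0.0919). It was also lost with only the libraries compared (edgeR adjusted p = 0.0917), with a replicate block (0.0664), after thinning (0.0528) and with a spread per group in limma-voom (adjusted p = 0.0739). SAMHD1 shares 1159 exon bases with TLDC2 on the other strand and 7.79% of its distinct 101-base words with TLDC2 transcripts, and the strand setting of the counting was not given in the sources used here, so reads from that stretch could not be assigned. TLDC2 itself had 1 read in each oeSRPK1 library and 0 in the other 4.

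The 3 APOBEC3 cytidine deaminases, neighbours on chromosome 22 plus strand, had the 3 smallest fold changes of the members in oeSRPK1 against NT, between 0.31 and 0.84 on the log2 scale. APOBEC3G (ENSG00000239713.6, 39077005 to 39087743), which acts on retroviral DNA, had 60.1 and 61.5 CPM in oeSRPK1, 48.8 and 54.1 in shSRPK1, and 31.9 and 36.0 in NT. The 3 groups did not overlap. It rose 1.79-fold in oeSRPK1 (95% limits 1.47 to 2.18, 0.84 ± 0.12, edgeR adjusted p = 0.00456) and 1.51-fold in shSRPK1 (95% limits 1.24 to 1.84, 0.60 ± 0.12, edgeR adjusted p = 0.0270), and the transfected groups differed by 0.24 ± 0.12 (95% limits -0.04 to 0.52, edgeR adjusted p = 0.188). The call in oeSRPK1 was lost without NT 1 (edgeR adjusted p = 0.0815) or oeSRPK1 1 (0.0793), and that in shSRPK1 without NT 1 (0.308), NT 2 (0.155), oeSRPK1 1 (0.0852) or oeSRPK1 2 (0.0847).

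APOBEC3F (ENSG00000128394.15, 39040604 to 39053910), which also deaminates retroviral DNA, had 12.3 and 7.24 CPM in oeSRPK1, 9.44 and 11.2 in shSRPK1, and 7.18 and 6.78 in NT. Both transfected groups lay above NT, oeSRPK1 2 (28 reads) by little. Its log2 fold changes were 0.57 ± 0.25 in oeSRPK1 (95% limits -0.01 to 1.16, edgeR adjusted p = 0.147) and 0.56 ± 0.25 in shSRPK1 (95% limits -0.02 to 1.14, edgeR adjusted p = 0.184), and 0.01 ± 0.25 between the transfected groups (95% limits -0.56 to 0.58, edgeR adjusted p = 0.978). With a library left out its values ran from 0.02 (without oeSRPK1 1) to 0.82 in oeSRPK1, and from 0.44 to 0.68 in shSRPK1. APOBEC3C (ENSG00000244509.3, 39014083 to 39020352) had 67.0 and 63.9 CPM in oeSRPK1, 66.2 and 48.1 in shSRPK1, and 53.8 and 51.7 in NT. The shSRPK1 libraries lay on both sides of NT. Its log2 fold changes were 0.31 ± 0.16 in oeSRPK1 (95% limits -0.05 to 0.68, edgeR adjusted p = 0.197) and 0.12 ± 0.16 in shSRPK1 (95% limits -0.24 to 0.48, edgeR adjusted p = 0.661), so rises above 1.60-fold in oeSRPK1 and above 1.40-fold in shSRPK1 were outside the intervals. With a library left out the values of APOBEC3C ran from 0.24 to 0.35 in oeSRPK1, and from -0.13 to 0.33 (without shSRPK1 2) in shSRPK1. Near-identical stretches make APOBEC3F and APOBEC3G less certain, since 13.2% of the 3273 distinct 101-base words in APOBEC3F transcripts and 5.01% of the 5549 in APOBEC3G transcripts also occur in transcripts of other genes. For APOBEC3C, and for BST2, RSAD2, CMPK2, ISG20, ZC3HAV1 and SLFN5, that share was 0.

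**Figure D3:**
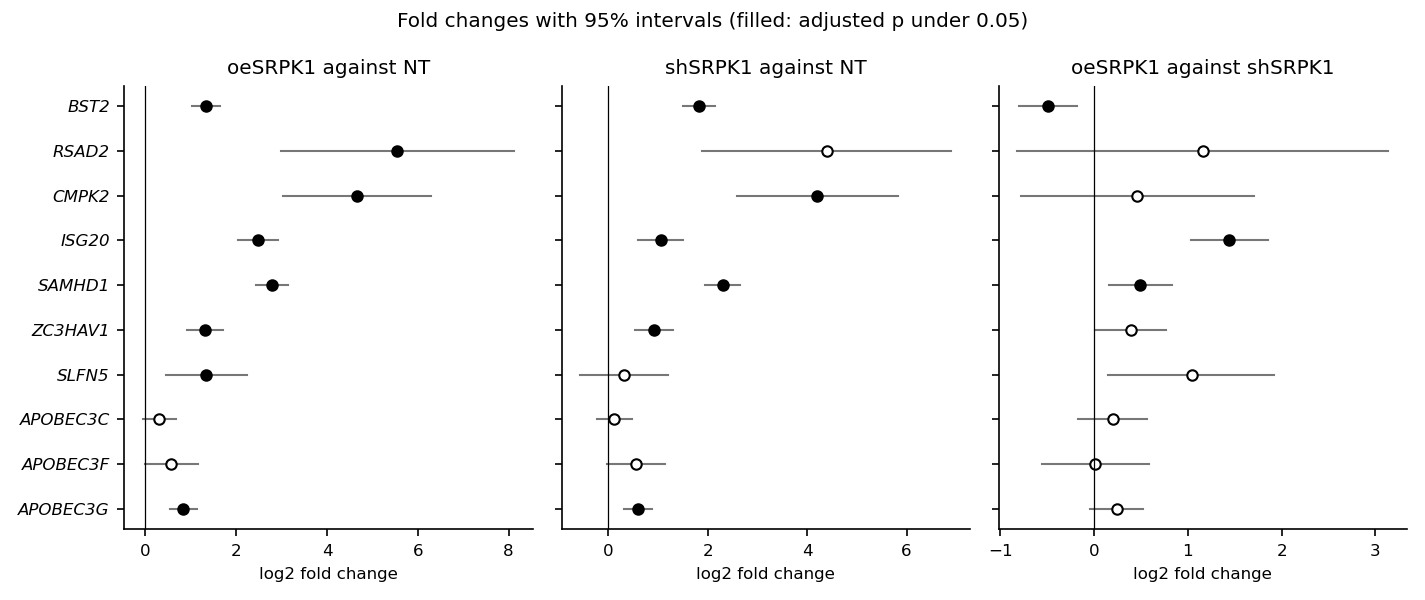
Log2 fold change of each restriction factor with its 95% interval (edgeR), in oeSRPK1 against NT, shSRPK1 against NT and oeSRPK1 against shSRPK1, filled where the adjusted p was under 0.05. The intervals of RSAD2 and CMPK2 are the widest, and ISG20 has the largest called difference between the transfected groups, at 1.44.

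The number of members called moved with the libraries in the fit, and so did the share of all tested genes called. With a library left out, the remaining one of its group took its spread from the other groups. In oeSRPK1 against NT, 4 members were called higher without NT 1 (1.36% of tested genes called higher), 5 without NT 2 (1.82%), 4 without oeSRPK1 1 (1.48%) and 7 without oeSRPK1 2 (3.94%). All 10 were called higher without shSRPK1 1 (20.2% of tested genes) or shSRPK1 2 (19.3%). In shSRPK1 against NT, 2 were called higher without NT 1 (0.151% of tested genes), 2 without NT 2 (0.296%), 3 without oeSRPK1 1 (1.06%) and 3 without oeSRPK1 2 (1.11%). Without shSRPK1 1, 8 were called higher there (13.9% of tested genes), and without shSRPK1 2, 7 were (14.9%), when SLFN5 was called lower. When only the libraries of the 2 groups were fitted, 10 members were called higher in oeSRPK1 (21.6% of tested genes) and 2, BST2 and SAMHD1, in shSRPK1 (0.623%). A spread per group in limma-voom also gave 10 in oeSRPK1 (22.1%). With no filter on low counts RSAD2, CMPK2 and SLFN5 lost their calls in oeSRPK1 and CMPK2 in shSRPK1. After thinning to the shallowest library CMPK2, ISG20 and APOBEC3G lost theirs in shSRPK1 and SLFN5 in oeSRPK1, and in limma-voom CMPK2 lost its call in shSRPK1 and SLFN5 in oeSRPK1. No call of BST2 or SAMHD1 against NT was lost in any of these settings at the 0.05 threshold.

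**Figure D4:**
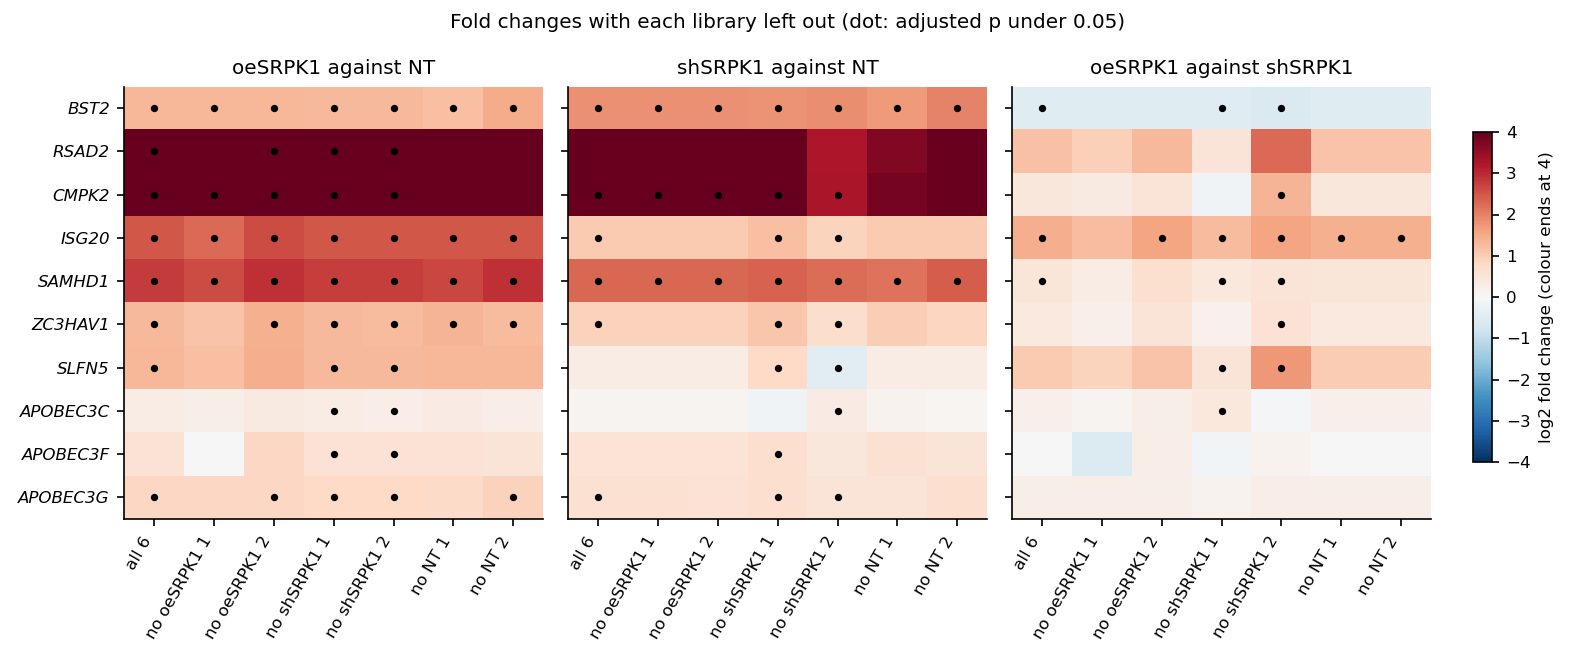
Log2 fold changes (colour) of the 10 genes in the 3 comparisons with all 6 libraries and with each library left out in turn, and a dot where the edgeR adjusted p was under 0.05. BST2 and SAMHD1 keep their dots against NT throughout, while SLFN5 in shSRPK1 against NT runs between 0.79 and -0.42.

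The other genes of these defences were read from lists chosen with earlier results of these data known, and their values are log2 fold changes against NT with SE. The shares of all tested genes called stand above, 11.2% higher and 9.45% lower in oeSRPK1, and 5.43% higher and 3.75% lower in shSRPK1. Of 20 other intrinsic antiviral factors 19 were tested, and in oeSRPK1 12 rose and 2 fell, with a median of 1.45, while in shSRPK1 11 rose and 1 fell, with a median of 1.37. IFITM3, which blocks virus entry from endosomes, rose by 2.09 ± 0.17 in oeSRPK1 and 2.22 ± 0.17 in shSRPK1 (edgeR adjusted p = 0.000454 and 0.00124). TRIM5, which binds incoming retroviral capsids, rose by 1.60 ± 0.11 in oeSRPK1 and 1.55 ± 0.11 in shSRPK1 (edgeR adjusted p = 0.000397 and 0.00124). SHFL, an inhibitor of ribosomal frameshifting, rose by 1.54 ± 0.16 in oeSRPK1 and 1.49 ± 0.15 in shSRPK1 (edgeR adjusted p = 0.00113 and 0.00396). SERINC5, a membrane protein that lowers the infectivity of retroviral particles, fell by 0.50 in oeSRPK1 and by 0.64 in shSRPK1 on the log2 scale (edgeR adjusted p = 0.0293 and 0.0247). GBP2, an interferon-induced GTPase, fell by 0.57 in oeSRPK1 (edgeR adjusted p = 0.0396) and was 0.21 ± 0.16 in shSRPK1 (edgeR adjusted p = 0.403). The HUSH subunits TASOR, MPHOSPH8 and PPHLN1, which silence integrated proviruses, lay between -0.27 and 0.20 in both groups and did not pass.

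Of 8 other APOBEC family genes 2 were tested. APOBEC3D rose by 0.77 ± 0.20 in oeSRPK1 (edgeR adjusted p = 0.0305) and 1.14 ± 0.19 in shSRPK1 (edgeR adjusted p = 0.0165), and APOBEC3B had 34.7 and 43.2 CPM in oeSRPK1, 34.2 and 15.9 in shSRPK1, and 18.1 and 16.8 in NT, which did not pass (edgeR adjusted p = 0.0600 and 0.348). APOBEC1 and APOBEC4 had 0 reads in every library. APOBEC2, which was not tested, had 6 and 25 reads in oeSRPK1 and 0 in each shSRPK1 and NT library. Of 5 other schlafens only SLFN12 was tested, at 1.11 ± 0.39 in oeSRPK1 and 0.78 ± 0.39 in shSRPK1 (edgeR adjusted p = 0.0821 and 0.228).

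Among 10 cofactors and RNA decay partners of ZAP, 4 rose and 0 fell in oeSRPK1 and 2 rose and 0 fell in shSRPK1, with medians of -0.08 and 0.26. TRIM25, a ubiquitin ligase that ZAP needs, had 619.1 and 552.9 CPM in oeSRPK1, 251.7 and 395.5 in shSRPK1, and 161.8 and 157.3 in NT. It rose by 1.88 ± 0.21 in oeSRPK1 and 1.02 ± 0.21 in shSRPK1 and was higher in oeSRPK1 libraries than in those of shSRPK1 (edgeR adjusted p = 0.00166, 0.0258 and 0.0229). KHNYN, the endonuclease that acts with ZAP, rose by 0.64 ± 0.14 in oeSRPK1 and was 0.45 ± 0.13 in shSRPK1 (edgeR adjusted p = 0.0162 and 0.0725). N4BP1 rose by 0.93 ± 0.18 in oeSRPK1 and 0.79 ± 0.18 in shSRPK1 (edgeR adjusted p = 0.0124 and 0.0365), and XRN1, a 5′ exonuclease, rose by 0.64 ± 0.15 in oeSRPK1 (edgeR adjusted p = 0.0216). The exosome subunits EXOSC3, EXOSC5 and EXOSC7 did not pass in either group.

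A list named nucleotide supply covers enzymes of the nucleotides on which SAMHD1, CMPK2 and RSAD2 act. It also holds enzymes that break nucleotides down, such as NT5M. Its genes were called lower or not at all. Of 20 tested, 0 rose and 6 fell in oeSRPK1, and 0 rose and 4 fell in shSRPK1, with medians of -0.38 and -0.39. TYMS, the thymidylate synthase, fell by 1.05 on the log2 scale in oeSRPK1 (edgeR adjusted p = 0.0124), and so did NT5M, a mitochondrial deoxynucleotidase, by 1.90 (edgeR adjusted p = 0.00425), CTPS1, a CTP synthase, by 0.87 (edgeR adjusted p = 0.0120), DUT, by 0.70 (edgeR adjusted p = 0.0105), and the ribonucleotide reductase subunit RRM1, by 0.82 (edgeR adjusted p = 0.0359). In shSRPK1, DCK, RRM2B and TK2, which feed the salvage and reductase routes, fell by 0.71, 0.64 and 0.48 (edgeR adjusted p = 0.0286, 0.0293 and 0.0460). CMPK1, the cytosolic counterpart of CMPK2, was -0.12 ± 0.12 in oeSRPK1 and -0.45 ± 0.12 in shSRPK1 (edgeR adjusted p = 0.492 and 0.0546). Of 7 tested exonuclease relatives of ISG20, 1 rose and 1 fell in oeSRPK1 and 0 rose and 2 fell in shSRPK1. In oeSRPK1 that is close to the 20.6% of all tested genes called in either direction, and in shSRPK1 9.18% were. In oeSRPK1 these were REXO1 and REXO2 (0.57 ± 0.15 and -0.63 ± 0.14, edgeR adjusted p = 0.0371 and 0.0183), and in shSRPK1 ISG20L2 and AEN (-0.61 ± 0.15 and -0.78 ± 0.14, edgeR adjusted p = 0.0457 and 0.0185).

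**Figure D5:**
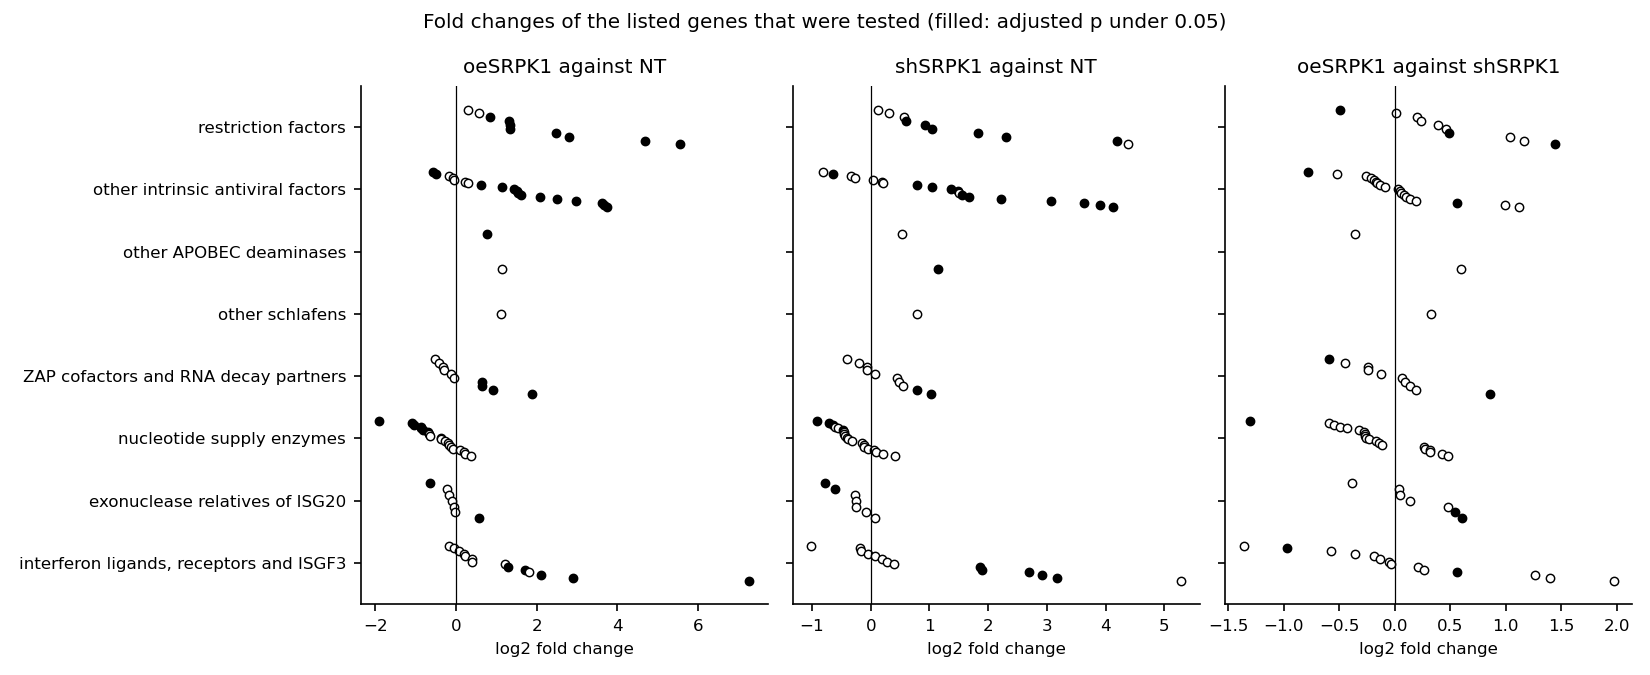
Log2 fold changes of the tested genes of each list, 1 point per gene, in the 3 comparisons (each with its own scale), filled where the edgeR adjusted p was under 0.05. The called restriction factors and other intrinsic antiviral factors lie mostly right of 0 against NT, and the called nucleotide supply enzymes lie left of it. The farthest point of the interferon row is IFNL1, whose fitted value depends on the prior count because NT had 0 reads.

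Of the interferon system that drives many of these genes, 14 of 18 listed genes were tested, and 5 rose and 0 fell in each transfected group. IRF7 rose by 2.89 ± 0.23 in oeSRPK1 and 2.92 ± 0.23 in shSRPK1 (edgeR adjusted p = 0.000454 and 0.00145). Among the others called were STAT2 and IRF9 in both groups, IFNL1 in oeSRPK1 and IFNE in shSRPK1. IRF9 stood lower in oeSRPK1 libraries than in those of shSRPK1 (-0.97 ± 0.28, edgeR adjusted p = 0.0410), as did BST2. The interferon genes themselves had few reads, with 23 and 3 of IFNB1 in oeSRPK1, 3 and 8 in shSRPK1, and 1 and 1 in NT, and with 25 and 10 of IFNL1 in oeSRPK1, 3 and 6 in shSRPK1, and 0 and 0 in NT. IFNE had 21 and 3 reads in oeSRPK1, 22 and 32 in shSRPK1, and 4 and 2 in NT.

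Between the transfected groups 22.8% of all tested genes were called, 11.5% higher and 11.3% lower in oeSRPK1. Of 19 tested intrinsic factors 1 was higher and 1 lower, as for the 10 ZAP partners and the 14 tested interferon genes. Of 20 tested genes of nucleotide supply 0 were higher and 1 lower, and of 7 exonuclease relatives 2 and 0. No APOBEC or schlafen gene of these lists was called. GBP2 (-0.78 ± 0.16, edgeR adjusted p = 0.0136) was lower in oeSRPK1 libraries, as were DDX17, an RNA helicase of the ZAP list (-0.59, edgeR adjusted p = 0.0180), and NT5M (-1.30 ± 0.28, edgeR adjusted p = 0.0171). SERINC3, a relative of SERINC5 (0.56, edgeR adjusted p = 0.0162), and IFNAR1, a subunit of the type I interferon receptor (0.56, edgeR adjusted p = 0.0178), were higher there. The exonuclease relatives ISG20L2 (0.54 ± 0.15, edgeR adjusted p = 0.0395) and AEN (0.61 ± 0.14, edgeR adjusted p = 0.0193) were also higher in oeSRPK1 than in shSRPK1. Against NT, however, they fell in shSRPK1 and did not pass in oeSRPK1 (-0.06 ± 0.15 and -0.17 ± 0.14), whereas ISG20 rose in both groups.

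For 9 of the members, the tested gene nearest in pattern, by the root mean square difference over the 6 libraries in log2 CPM relative to the NT mean, was PARP9 for SAMHD1 (0.089), ADAR for ZC3HAV1 (0.093), IFIT1 for CMPK2 (0.282) and IFI27 for RSAD2 (0.781). For BST2 it was ARRDC3 (0.158), for SLFN5 MAP1LC3B (0.139), for APOBEC3C RALGDS (0.026), for APOBEC3F WHAMM (0.092) and for APOBEC3G LANCL2 (0.070). The search covered 12444 genes whose log2 CPM averaged 1 or more, and small values are easier to reach for members that changed little.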

How the data were processed

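Poly(A) RNA of T98G cells gave 6 libraries, 2 in each group. The authors deposited a table of raw read counts for each library, whole numbers without normalisation. FastQC, Trimmomatic, STAR 2.5.3 and the build hg38 are named, per the submitters' processing notes. The tool used for counting is not given in the sources used here, nor are the annotation and strand setting. Entries that name no gene stayed out of library sizes and tests, and held 8.13% to 11.1% (no gene), 12.0% to 13.1% (several alignments) and 3.04% to 3.37% (ambiguous) of a library's total. Nothing says that replicates were separate cultures, so a p-value gauges only how far these samples differ, which may be technical.

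GENCODE 29 (GRCh38) gave positions and exons. Symbols came from a gene name reference for 56321 gene ids and from GENCODE 29 alone for 432, and 3730 had none. In R 4.3.3, edgeR 4.0.16 kept 14732 genes by filterByExpr (minimum count 10, minimum total 15), scaled them by TMM and fitted glmQLFit (robust) to all 6 libraries. Benjamini-Hochberg adjustment ran over all tested genes, and limits are at 95%. CPM were taken on TMM library sizes, and the log2 scale for pattern likeness used a prior count of 2. GENCODE 29 transcripts were compared by distinct 101-base words. The fit was tested on simulated data. Other settings were DESeq2 size factors, scaling by upper quartiles, no filter, a filter at 5 CPM in 2 libraries, DESeq2 1.42.0, limma-voom (limma 3.58.1) with or without a spread per group, only the libraries compared, a replicate block, thinning to the shallowest library, an adjusted p under 0.01, and each library left out, the remaining one of its group then taking its spread from the other groups. The text names the 10 members, SRPK1, for each list at most 6 called genes by smallest adjusted p in each comparison, and the gene nearest in pattern to a member; some genes that this rule names are not reported here. List genes that passed no test, IFNB1 and, as 1 of few that fell, SERINC5 were named after their values were seen. The members and lists were chosen with earlier results of these data known.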

Additional observations from a re-analysis of the deposited data

Results flagged for a closer look

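The oeSRPK1 and shSRPK1 groups differed for 3 of the 10 restriction factors when the difference itself was tested (oeSRPK1 against shSRPK1 in edgeR). Of all tested genes 22.8% were called in that comparison, 11.5% higher and 11.3% lower. BST2 was lower in oeSRPK1 (log2 fold change -0.49, edgeR adjusted p = 0.0368), while ISG20 (1.44, edgeR adjusted p = 0.00302) and SAMHD1 (0.49, edgeR adjusted p = 0.0432) were higher in oeSRPK1. With each of the 6 libraries left out in turn, ISG20 was called 5 times, BST2 and SAMHD1 2 times each. The calls of BST2 and SAMHD1 were also lost with only the libraries compared (edgeR adjusted p = 0.0770 and 0.0917), with the replicate block (0.0583 and 0.0664) and with a spread per group in limma-voom (adjusted p = 0.0604 and 0.0739), and that of SAMHD1 after thinning (edgeR adjusted p = 0.0528).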

How the results depend on the processing

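Over the 10 members and 3 comparisons, 125 of the fold changes with a library left out kept direction and call, 35 lost the call, 12 gained it and 8 turned direction; under the other settings these numbers were 263, 23, 8 and 6. Calls over all tested genes moved too, between 0.182% and 29% in shSRPK1 against NT, 1.94% and 41.8% in oeSRPK1 against NT, and 0.952% and 38.8% in oeSRPK1 against shSRPK1 with a library left out. The cause was not tested, except that some settings use fewer libraries or reads or a stricter threshold by construction.

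The 8 members called higher in oeSRPK1 against NT became 5 with no filter, and 4 to 10 with a library left out, with 0 called lower throughout. The 6 called higher in shSRPK1 against NT became 2 with only the libraries compared, 3 after thinning and 2 at an adjusted p under 0.01, and 2 to 8 with a library left out, when 0 to 1 were called lower. Over all tested genes the share called higher went from 11.2% to 6.63% with no filter in oeSRPK1 against NT. In shSRPK1 against NT it went from 5.43% to 0.623% with only the libraries compared, 4.76% after thinning and 0.828% at the 0.01 threshold. The 2 called higher in oeSRPK1 against shSRPK1 (11.5% of tested genes) became 1 with only the libraries compared (5.27%) and with the replicate block (9.85%). They were also 1 after thinning (9.19%) and at an adjusted p under 0.01 (3.27%). The 1 called lower (11.3% of tested genes) became 0 with a spread per group in limma-voom (9.85%) and with only the libraries compared (5.18%). It was also 0 with the replicate block (9.47%) and at an adjusted p under 0.01 (3.32%). With a library left out these were 0 to 5 higher and 0 to 1 lower.

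Calls over the 3 comparisons also moved in the other lists. Over all tested genes 9.18% were called in shSRPK1 against NT, 20.6% in oeSRPK1 against NT and 22.8% between the transfected groups. At an adjusted p under 0.01 these shares were 1.23%, 6.71% and 6.58%, and with no filter 9.17%, 14.3% and 15.6%. After thinning they were 7.59%, 18.1% and 18.7%, and with a spread per group 7.51%, 42.7% and 18.9%. With only the libraries compared they were 0.903%, 44.2% and 10.4%. At an adjusted p under 0.01, the 28 calls of intrinsic factors became 18, the 2 of APOBEC genes 0, the 8 of ZAP partners 1, the 11 of nucleotide supply 2, the 6 of exonuclease relatives 0 and the 12 of the interferon system 7. With no filter, APOBEC genes had 6, schlafens 1 against 0, ZAP partners 13, nucleotide supply 21 and the interferon system 20. Schlafens had 1 with a spread per group and 1 with only the libraries compared, when exonuclease relatives had 2. After thinning APOBEC genes had 1 and exonuclease relatives 3. With a library left out the ranges were 11 to 33 for intrinsic factors, 0 to 4 for APOBEC genes, 0 to 2 for schlafens, 1 to 18 for ZAP partners, 0 to 33 for nucleotide supply, 0 to 8 for exonuclease relatives and 2 to 26 for the interferon system.

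Directions turned in these cases. In oeSRPK1 against shSRPK1, APOBEC3F was -0.01 with upper-quartile scaling, with only the libraries compared and with the replicate block, -0.05 with no filter, -0.02 in DESeq2 and -0.09 after thinning, and ran between -0.54 and 0.26 with a library left out. CMPK2 ran between -0.13 and 1.35 and APOBEC3C between -0.05 and 0.42 there. In shSRPK1 against NT, SLFN5 ran between -0.42 and 0.79 and APOBEC3C between -0.13 and 0.33.

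Replicate numbers are shared between groups, but deviations from the group means correlated at 0.010 (shSRPK1 with NT), -0.019 (oeSRPK1 with NT) and 0.023 (oeSRPK1 with shSRPK1) over genes, so the numbers were not taken to pair libraries. With the replicate block RSAD2 was gained in shSRPK1 against NT (4.39, edgeR adjusted p = 0.0306), and BST2 and SAMHD1 lost their calls between the transfected groups (edgeR adjusted p = 0.0583 and 0.0664). Thinning to the shallowest library cost the calls of CMPK2, ISG20 and APOBEC3G in shSRPK1 against NT, of SLFN5 in oeSRPK1 against NT and of SAMHD1 between the transfected groups.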
